A study of Rattus norvegicus with 8 samples.

Results

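The response of the rat spleen to oral lavender oil (LO) was read from the 2 spleen arrays of a series of 8 arrays, 2 of small intestine and 4 of liver being the others. Male rats 7 weeks of age received LO at 5 mg/kg in 10% ethanol (LO group) or 10% ethanol alone (control group) by mouth once a day for 13 days, and tissues were taken on day 14. Each group held 6 rats, whose RNA was pooled, so that 1 LO pool and 1 control pool of spleen RNA were compared. The sample annotation names the strain as Wistar in one field and as the Fischer substrain F334 in the growth protocol. Both groups therefore share the ethanol vehicle, and an untreated group was not analysed here. The 2 pools were hybridized together on both arrays with the dyes exchanged: LO carried Cy5 on array 1 and Cy3 on array 2. The dye swap is a technical repeat of 1 comparison. The spread between the arrays holds labelling and hybridization error and no variation between rats.

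The transcripts described are those read well above background in both dyes on both spleen arrays. They are 22828 of the 41012 probes on an array (55.7%), from 24338 features after 5 flagged as non-uniform had been left out, and 0 of them were saturated. Of the features of an array, 63.5% were bright in both dyes on array 1 and 56.6% on array 2. A current RefSeq symbol could be given to 7203 of the probes (31.6%), which stand for 5812 genes. The others, among them expressed sequence tags and predicted transcripts, count in all totals over probes and not in the gene lists.

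The spleen has a red pulp, where macrophages clear old and damaged erythrocytes from the blood, and a white pulp built of B and T lymphocytes. In rodents the red pulp also goes on making erythrocytes in adult life, so that spleen RNA contains transcripts of maturing, dividing erythroid precursors besides those of immune cells. Erythroid maturation runs under the transcription factor GATA1 and ends in cells filled with globin, heme enzymes, membrane skeleton proteins (spectrins, band 3) and the Rh proteins of the surface.

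The labelled tissue was checked against markers in the control dye. All 6 measured B cell markers were brighter in spleen than in both the small intestine and the liver. The same was true of 14 of 16 T cell markers, 13 of 16 red pulp macrophage markers and 17 of 20 erythroid markers. Genes for hepatocyte products stood far lower in spleen than in liver, and 13 of 26 were above background in the spleen control.

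Between the 2 arrays the small ratios did not repeat. Array 1 and array 2 gave log2 LO/control values with a Pearson correlation of -0.40 over the 22828 probes, which is a correlation across probes and not across samples. Only 34.4% of the probes pointed the same way on both arrays: 3589 (15.7%) were higher with LO on both and 4273 (18.7%) lower on both. The ratios had an SD of 0.18 on array 1 and 0.19 on array 2. The part of each ratio that turned sign with the dyes had an SD of 0.16, against 0.10 for the mean of both arrays, in which it cancels. Copies of a probe printed 10 times had a median SD of 0.03 within either array, so that the difference between arrays was larger than the reading error within one. Values below are therefore given for both arrays, and the mean ± SD (n = 2 arrays) describes the dye swap alone.

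**Figure D1:**
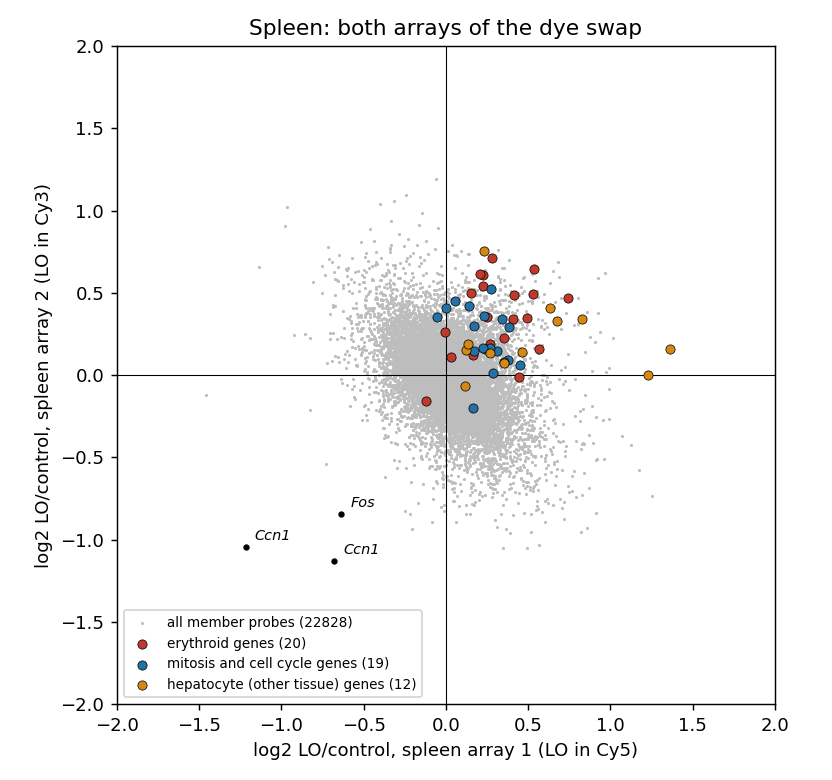
Each grey point is 1 of the 22828 probes, with log2 LO/control on spleen array 1 (LO in Cy5) on the x axis and on array 2 (LO in Cy3) on the y axis, and coloured points are the gene means of 3 lists. The grey cloud leans from upper left to lower right (Pearson correlation -0.40), 17 of 20 erythroid genes sit at the upper right, and the 2 Ccn1 probes and Fos lie apart at the lower left.

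Few bright transcripts passed the cut-offs that the methods of the study state, which are a Cy5/Cy3 ratio of at least 1.5 on one array and at most 0.75 on the other. With the P value of the scanner software's error model below 0.01 on both arrays as well, 3 probes were higher with LO (0.0131% of 22828) and 3 were lower (0.0131%). Without the P threshold, 11 were higher (0.0482%) and 3 lower (0.0131%), and 7 of these 14 passed after normexp background correction as well. The limma fit, which takes the spread between liver pools as its error, called 0 probes higher and 0 lower at an adjusted p below 0.05, with a smallest adjusted p of 0.131. At an unadjusted p below 0.05 it gave 733 higher (3.21%) and 415 lower (1.82%). For 7731 probes, dim in a liver pool, the limma error is the prior SD alone.

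The lowest ratios with LO were those of Ccn1, which encodes a matricellular protein of the CCN family (CYR61) that binds integrins and is induced by serum, stretch and the YAP coactivator. Its first probe gave a signal of 628 with control and 270.0 with LO on array 1, and 494 with control and 239 with LO on array 2. Its second probe gave 227 and 142 on array 1 and 215 and 98.1 on array 2. Both probes were lower with LO on both arrays. On the log2 scale the first probe averaged -1.13 ± 0.12 (SD over 2 arrays), a ratio of 0.456, and the second -0.90 ± 0.32, a ratio of 0.534. The limma standard error was 0.079 for either probe, with adjusted p of 0.131 and 0.251. The first probe was the single call when dye orientation entered limma as a replicate block (adjusted p = 0.0461). That fit counts the arrays of a dye swap as separate observations though they hold the same pools, so its p holds no variation between spleen pools.

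Ccn1 did not stand so in the other tissues. In the small intestine its first probe averaged -0.09 and in liver pools 1 and 2 it averaged 0.08 and 0.13. The difference between spleen and small intestine was -1.05 (limma adjusted p = 0.641) and that between spleen and liver was -1.24 (adjusted p = 0.193), so that neither passed the threshold. By the slide codes in the file headers, each tissue was on a slide of its own, and slide and tissue cannot be told apart in this contrast. The other CCN genes and YAP targets shared no direction: of 10 measured, Ccn1 alone was lower on both arrays, 0 were higher on both, and the list median was -0.19 on array 1 and 0.02 on array 2. Ccn2, another serum-induced member of the family, gave -0.20 on array 1 and 0.03 on array 2.

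Fos, the immediate early gene whose protein pairs with JUN in the AP-1 factor, was the other gene lower by the cut-offs. Its signal was 107 with control and 69.1 with LO on array 1, and 99.9 and 55.7 on array 2. Fos read lower with LO than with control on each array, both arrays being readings of the same pools. Its mean on the log2 scale was -0.74 ± 0.15 (SD over both arrays), with a limma adjusted p of 0.570. Under normexp background correction the mean was -0.34, and Fos no longer passed the cut-offs. In the small intestine, where Fos signals were between 1598 and 2086, LO/control was -0.23 on array 1 and 0.06 on array 2. In the liver, Fos was not well above background.

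Of 28 measured immediate early genes, 7 were lower with LO on both arrays and 3 higher, against 19.1% and 16.8% of all 5812 named genes. The list median was -0.03. Jun (mean -0.18), Egr1 (-0.12), Ier2 (-0.09) and Atf3 (-0.15) lay below 0 in the mean, but Egr1 and Atf3 each stood at or above 0 on array 1. Egr3 was the highest, with 0.40 on array 1 and 0.13 on array 2 with a highest signal of 32.7. Fos was thus the single immediate early gene with at least a 1.2-fold difference on both arrays, a limit that 178 probes passed upwards (0.78%) and 32 downwards (0.14%), among them 49 named genes upwards (0.843%) and 4 downwards (0.0688%).

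The bases before the start of the Ccn1 gene are printed since the gene had the lowest ratio of all named genes. They are the 250 bases upstream of the RefSeq start in build GRCr8, in the direction of transcription, with the letters TATAAA in capitals.
Ccn1 (chr2:237225690-237225939, minus strand): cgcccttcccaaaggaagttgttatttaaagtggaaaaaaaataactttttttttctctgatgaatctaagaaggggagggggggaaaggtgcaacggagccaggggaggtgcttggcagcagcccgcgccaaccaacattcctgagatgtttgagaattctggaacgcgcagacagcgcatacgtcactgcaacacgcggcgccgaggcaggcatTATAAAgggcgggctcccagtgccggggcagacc
These letters, on either strand, occur in 12.9% of 33469 RefSeq windows of that length. The palindrome TGACGTCA of the cyclic AMP response element was not in this window and occurs in 1.59% of all windows.

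Erythroid genes were higher with LO as a group. This list, like all gene lists here, was chosen with earlier results of these data known, so its shares describe the list and do not test it. Of 20 measured erythroid genes, 17 were higher with LO on both arrays, 1 was lower on both and 2 differed in direction, where 16.8% of all named genes were higher on both. The median over the 20 genes was 0.37, with 0.27 on array 1 and 0.35 on array 2, against -0.01 over all named genes. At least a 1.2-fold difference on both arrays was read for 7 of them. None passed limma's adjusted threshold. At an unadjusted p below 0.05, 19 of their 24 probes were higher, against 3.18% of all named probes. All 20 genes with a probe on the array were bright enough to be counted, with control signals on array 1 between 138 and 109482. In pooled tissue RNA a different number of cells of a type and a different amount of RNA per cell cannot be told apart.

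Several of the erythroid genes encode membrane proteins. Rhag encodes the Rh-associated glycoprotein, an ammonia and gas channel of the erythrocyte surface. The probe of Rhag past the cut-offs gave 999.8 with control and 1549.8 with LO on array 1, and 881 and 1298 on array 2. It averaged 0.60 ± 0.05 on the log2 scale (SD over both arrays; limma adjusted p = 0.570), and that of its second probe was 0.62 ± 0.33. Rhd, which encodes the Rh blood group protein itself, was brighter, with 13621 and 18182 on array 1 and 10968 and 15367 on array 2, a mean of 0.45 ± 0.05. For all of these the LO signal lay above the control signal of the same array on both arrays. Sptb, the beta spectrin, averaged 0.37, and Slc4a1, the anion exchanger band 3, averaged 0.30.

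The regulators and heme enzymes showed the same direction. Hemgn, which encodes hemogen, a nuclear protein of erythroid precursors, had signals of 2106 and 3034 on array 1 and 1439 and 2022 on array 2, and a mean of 0.51 ± 0.03. Gata1, the lineage's master transcription factor, gave 507 and 712 on array 1 and 475 and 605 on array 2, with a mean of 0.42 ± 0.10. Epor, the erythropoietin receptor, gave smaller values of 0.17 and 0.12. Among the enzymes of heme synthesis, Alad averaged 0.49, Uros 0.38 and Cpox 0.36. These differed between the arrays, Alad from 0.28 on array 1 to 0.71 on array 2 and Cpox from 0.57 to 0.16. Alas2, the erythroid enzyme of the rate-limiting step, gave 0.27 and 0.19.

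Of the globins, Hbb gave 62109 with control and 79428 with LO on array 1, and 53642 and 62830 on array 2, with a mean of 0.29. The beta globin Hbb-b1 gave 0.45 on array 1 and -0.01 on array 2. A probe for the globin transcript X15009, named HBB in the study's gene lists, was among those past the cut-offs without P, with 0.70 and 0.47. Globin genes are close copies of each other, and cross-hybridization between their probes was not tested. Hbe1, the embryonic epsilon globin, was the one lower on both arrays, with -0.12 and -0.15. A probe for the erythroid associated factor (XM_215059), a chaperone of free alpha globin, gave 57056 and 86254 on array 1 and 53165 and 74765 on array 2, a mean of 0.54 ± 0.07.

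Aqp3, which encodes a water and glycerol channel carried by rodent erythrocytes and by many epithelia, was past the cut-offs too. It gave 809 with control and 1273 with LO on array 1, and 700.3 and 1085 on array 2. Its mean was 0.64 ± 0.015 (SD over both arrays; limma adjusted p = 0.570), the closest pair of values among the 6 called probes. It was also higher with LO on both small intestine arrays, by 0.40 and 0.37, and not well above background in liver.

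**Figure D2:**
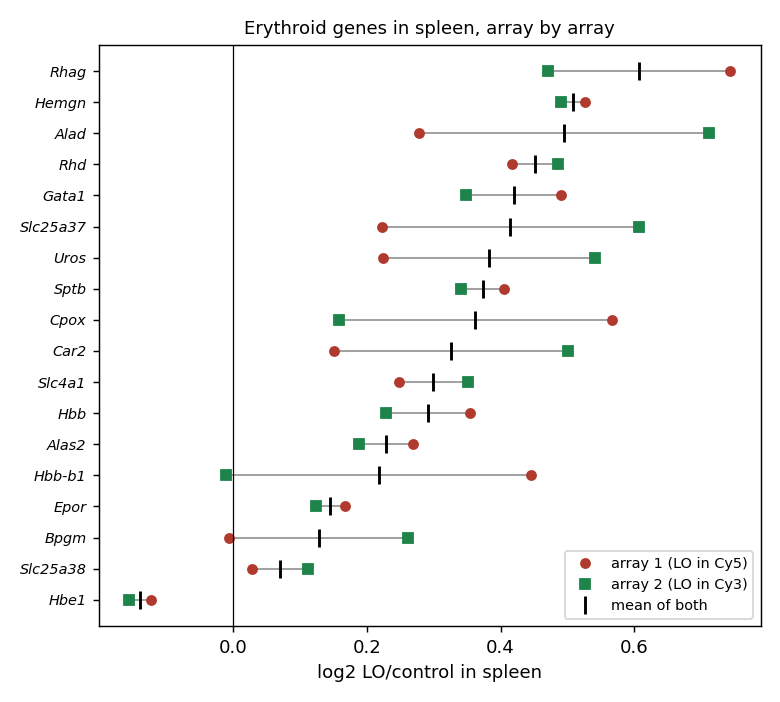
For 18 of the 20 erythroid genes the x axis gives log2 LO/control in spleen, circles being array 1, squares array 2 and bars the mean of both. All genes shown but Hbe1 have a mean above 0, from 0.07 for Slc25a38 to 0.61 for Rhag, and the arrays disagree most for Hbb-b1, Alad and Cpox.

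Several other genes at least 1.2-fold higher on both arrays are known from erythrocytes as well. They were in none of the gene lists and are named here with their values seen. They include Aqp1, the water channel (0.46 and 0.29), Pklr, the erythrocyte and liver pyruvate kinase (0.60 and 0.32), and Abcb10, a mitochondrial transporter of erythroid cells (0.28 and 0.43). A probe of Sox6, a transcription factor of definitive erythropoiesis, gave 0.44 and 0.50 with a highest signal of 93.2. Averaged over all its bright probes, Sox6 was not at least 1.2-fold higher on both arrays. Ypel4, a yippee-like protein, gave 0.48 and 0.60, and Rhbdd1, a rhomboid protease, gave 0.42 and 0.38, with a mean of 0.13 under normexp. Cenpi, which encodes a centromere protein, was past the cut-offs without P, with 56.2 and 90.4 on array 1 and 47.2 and 71.2 on array 2. Under normexp its mean was 0.31 and it did not pass. Of the 49 named genes at least 1.2-fold higher on both arrays, 7 were in the erythroid list, 3 in the mitosis list, 3 in the hepatocyte list and 33 in no list.

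Upstream sequence is shown for genes of this group, with the GATA letters AGATAA and the KLF letters CACCC in capitals on either strand (TTATCT and GGGTG when reversed). Windows were found for 14 of the 20 genes. Those of Rhag and Aqp3 are shown since both passed the cut-offs, and those of Hemgn, Rhd and Sptb as 3 of the 5 that hold AGATAA, Alas2 and Epor being the others. Hemgn has more than one RefSeq start, and the window shown is the one with that motif.
Rhag (chr9:27594391-27594640, minus strand): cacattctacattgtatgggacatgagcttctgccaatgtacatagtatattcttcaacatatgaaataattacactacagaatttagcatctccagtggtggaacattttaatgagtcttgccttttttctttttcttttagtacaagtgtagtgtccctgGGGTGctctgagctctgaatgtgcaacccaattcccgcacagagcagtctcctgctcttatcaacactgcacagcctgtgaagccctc
Aqp3 (chr5:61040684-61040933, minus strand): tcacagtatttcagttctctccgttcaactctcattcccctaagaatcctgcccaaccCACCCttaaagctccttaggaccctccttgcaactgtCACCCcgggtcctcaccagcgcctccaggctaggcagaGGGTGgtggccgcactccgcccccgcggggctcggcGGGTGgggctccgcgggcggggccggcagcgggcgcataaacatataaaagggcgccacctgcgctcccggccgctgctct
Hemgn (chr5:65485822-65486071, minus strand): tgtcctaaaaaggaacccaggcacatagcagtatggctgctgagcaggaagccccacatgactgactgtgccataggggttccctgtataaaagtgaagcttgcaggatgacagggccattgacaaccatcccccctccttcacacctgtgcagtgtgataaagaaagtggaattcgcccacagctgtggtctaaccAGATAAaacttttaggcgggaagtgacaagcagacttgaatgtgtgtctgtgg
Rhd (chr5:152370950-152371199, plus strand): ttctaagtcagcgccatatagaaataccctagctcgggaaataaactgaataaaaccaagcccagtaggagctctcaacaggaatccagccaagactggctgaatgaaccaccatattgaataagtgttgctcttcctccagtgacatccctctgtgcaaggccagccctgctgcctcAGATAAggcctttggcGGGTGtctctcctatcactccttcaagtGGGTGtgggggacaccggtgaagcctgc
Sptb (chr6:101170279-101170528, minus strand): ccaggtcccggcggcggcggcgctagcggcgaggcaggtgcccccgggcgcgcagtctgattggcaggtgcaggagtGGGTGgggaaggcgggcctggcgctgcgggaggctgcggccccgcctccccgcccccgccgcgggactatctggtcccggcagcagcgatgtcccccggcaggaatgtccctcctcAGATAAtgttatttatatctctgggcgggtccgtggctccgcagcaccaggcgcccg
The letters AGATAA were in the windows of 5 of the 14 erythroid genes, and 10.3% of 33469 windows hold them. CACCC was in those of 9, where 49.2% of all windows hold it. Such a match describes the letters and is not a measured binding site. A gene was counted if any of its windows held the letters, whereas the percentages are over single windows, which are unlike units.

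Genes of mitosis and the cell cycle were the second group with a shared direction. Of 19 measured, 16 were higher with LO on both arrays and 0 lower on both, where 16.8% and 19.1% of all named genes were. The list median was 0.23 (0.24 on array 1 and 0.17 on array 2). At least a 1.2-fold higher value on both arrays was read for 3 genes, against 0.843% of all named genes. At an unadjusted limma p below 0.05, 16 of the list's 26 probes were higher, against 3.18% of all named probes. After adjustment 0 passed. The cyclins of mitotic entry were the highest. Ccnb2 gave 0.27 and 0.52, and Ccnb1 gave 0.38 and 0.29. Ccna2 (cyclin A2) was nearly equal on both arrays, with 0.34 and 0.34. Plk1, the kinase of mitotic entry, averaged 0.30. Tyms, the thymidylate synthase, averaged 0.28. Pcna and Mcm7, which act in DNA replication, averaged 0.16 and 0.22. Hmmr was the one gene with a mean below 0 (0.16 and -0.20).

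The mitosis list differed between tissues in its median: -0.04 over 19 genes in the small intestine, 0.35 over 15 genes in liver pool 1 and 0.26 over 16 genes in liver pool 2. The erythroid list had 0.05 in the small intestine, -0.06 in liver pool 1 and -0.04 in liver pool 2, each over 13 genes bright there. These medians describe the lists and were not tested against each other. For single probes, the limma contrasts passed for 0 of 20339 probes between spleen and small intestine (718 at an unadjusted p below 0.05) and for 0 of 17010 between spleen and liver (814).

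Transcripts of hepatocyte products were also higher with LO in spleen. Of 26 such genes with a probe, 12 were bright enough to be counted, mostly at signals near background: the median control signal on array 1 was 69.2, against 2422 for the erythroid list. Of the 12, 10 were higher on both arrays and 0 lower on both, where 16.8% and 19.1% of all named genes were. The list median was 0.41 on array 1 and 0.16 on array 2. Alb, which encodes serum albumin, was higher by all 3 of its probes. The Alb probe past the cut-offs without P gave 69.6 with control and 110.1 with LO on array 1, and 54.4 and 73.8 on array 2. Under normexp its mean was 0.28, which did not pass. Apoc3, which encodes an apolipoprotein of triglyceride-rich particles, gave 0.63 and 0.40, and Fgb, the fibrinogen beta chain, gave 0.67 and 0.33. The arrays agreed poorly for the largest ratios of this list. Ambp gave 1.36 on array 1 and 0.16 on array 2, and Ttr (transthyretin) gave 31.1 with control and 72.8 with LO on array 1 but 33.9 with either on array 2. Under normexp background correction the median of the list was 0.19 in place of 0.40.

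Further genes of plasma and urinary proteins, outside that list, are named here because they were among the highest on both arrays. Their direction is thus part of how they were picked, and other unlisted genes of this kind were not counted. Mug1, a murinoglobulin (a proteinase inhibitor of plasma), gave 85.7 with control and 162 with LO on array 1, and 78.5 and 118 on array 2. Serpina3c, a serine proteinase inhibitor, gave 42.3 and 67.7 on array 1 and 34.9 and 56.1 on array 2, which was the closest agreement of all genes past the cut-offs without P (0.68 ± 0.0052). Under normexp the means of Mug1 and Serpina3c were 0.49 and 0.32, and neither passed. Mup5, a major urinary protein, gave 0.52 and 0.45. Of 5 measured genes of the intestinal epithelium, 2 were higher on both arrays and 1 lower, with a median of -0.02. The higher ones were Fabp1, a fatty acid binding protein (0.49 and 0.44), and Apoa4, an apolipoprotein (0.93 and 0.26, with a highest signal of 53.0), and hepatocytes make both as well. Cdx2, a transcription factor of the intestinal epithelium, gave -0.10 in the mean. Whether RNA of another tissue took part in these ratios was not tested.

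**Figure D3:**
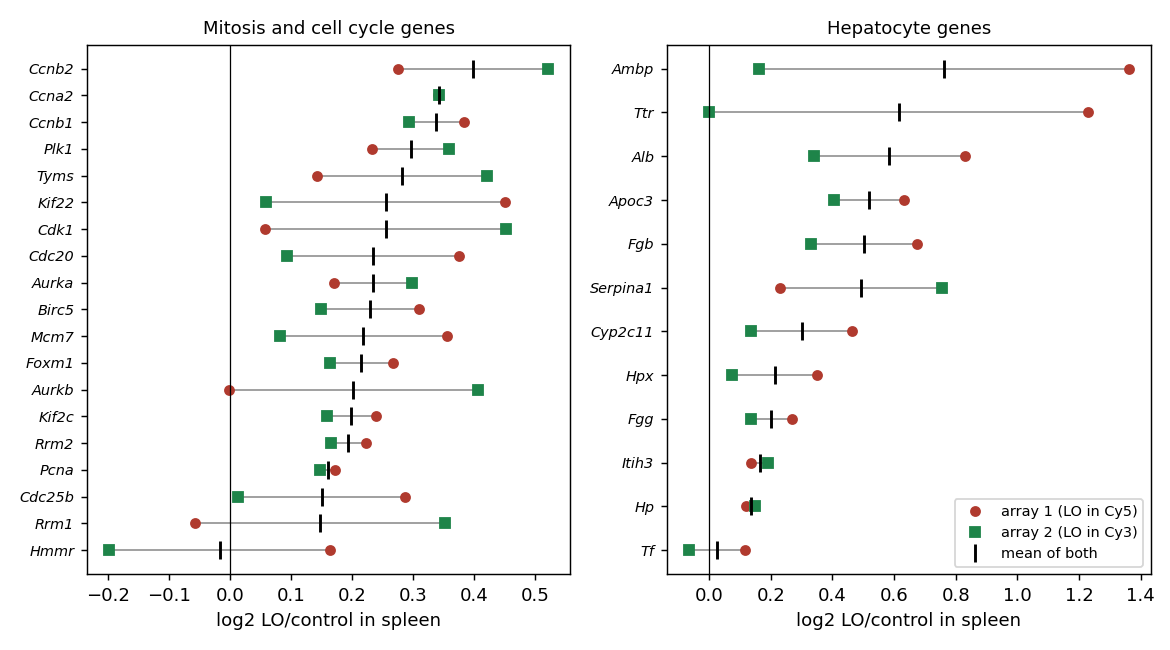
Log2 LO/control in spleen is on the x axis for 19 mitosis and cell cycle genes (left) and 12 hepatocyte genes (right), circles being array 1, squares array 2 and bars the mean. The mitosis genes cluster between 0.15 and 0.40 in the mean apart from Hmmr, whereas Ambp and Ttr among the hepatocyte genes are high on array 1 alone.

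Immunoglobulin probes were not examined as a list. Those named here were taken because they lay past the cut-offs for higher with LO, with or without P. The probe for NM_001013945, which the study's lists describe as an Ig gamma-1 chain constant region, had the highest called ratio. It gave 213 with control and 416 with LO on array 1, and 206 and 316 on array 2, which averages to 0.79 ± 0.25 on the log2 scale (SD over both arrays; limma adjusted p = 0.570). In the small intestine, where it was brighter, it gave -0.44 and -0.70. A second Ig heavy chain probe (DQ402472) gave 0.80 and 0.47 in spleen. All 5 measured plasma cell genes were lower with LO on both arrays by small amounts, where 19.1% of all named genes were lower on both. The list median was -0.10, with Mzb1, a chaperone of antibody secretion, the lowest at -0.21 ± 0.12. Of these 5 genes, 1 was brighter in spleen than in both other tissues. Ssr4 and Sec11c, for instance, serve secretion in many cells.

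**Figure D4:**
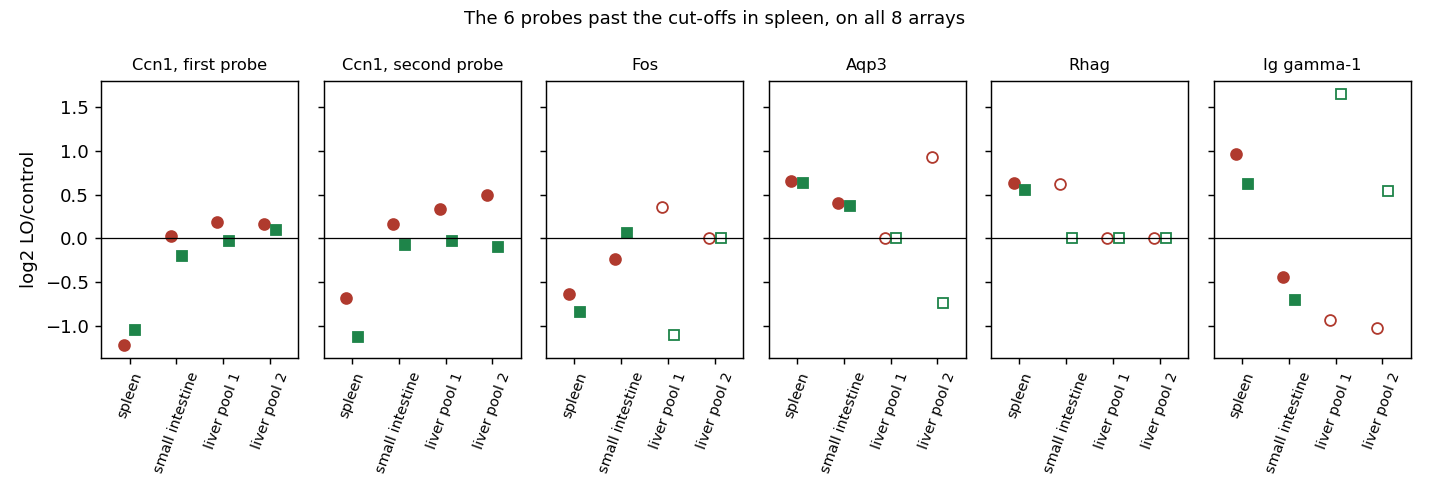
Log2 LO/control of the 6 probes past the cut-offs with P in spleen, on each of the 8 arrays: circles are arrays with LO in Cy5, squares arrays with LO in Cy3, and open symbols mark a channel not well above background. In spleen both Ccn1 probes and Fos lie below 0 and Aqp3, Rhag and the Ig gamma-1 probe above it, Aqp3 lies above 0 in the small intestine as well, and the Ig gamma-1 probe lies below 0 there.

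The lymphoid and myeloid lists had medians near 0. Medians were -0.02 for 6 B cell genes, -0.02 for 14 T cell genes and 0.02 for 15 red pulp macrophage and monocyte genes. Cd79b, a chain of the B cell receptor, gave -0.09 and 0.07, and Cd3d, a chain of the T cell receptor complex, gave 0.02 and -0.10. Vcam1, an adhesion molecule of red pulp macrophages, gave 0.02 and -0.02. Hmox1, the heme oxygenase by which these macrophages break down heme, gave 0.12 and -0.04. NK and cytotoxic genes had a median of -0.07, and the highest gene mean among them was -0.02, so that all 11 had a mean below 0. On both arrays 5 of 11 were lower and 0 higher, where 19.1% and 16.8% of all named genes were. Gzmb (granzyme B) gave -0.14 and -0.20. Ifng gave -0.63 on array 1 and -0.05 on array 2 with a highest signal of 54.7.

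Chemokines, cytokines and their receptors leaned lower by small amounts. Of 42 measured, 16 were lower on both arrays and 2 higher, where 19.1% of all named genes were lower on both, and the median was -0.04. None reached 1.2-fold on both arrays. Cxcl1, a neutrophil attractant, gave -0.20 and -0.50, and Ccl2, a monocyte attractant, gave -0.16 and -0.38. Interferon response genes leaned higher by as little, with a median of 0.05. On both arrays 8 of 21 were higher, where 16.8% of all named genes were, and 1 was lower. Rsad2, an antiviral enzyme, averaged 0.19, and Irf7, the regulator of type I interferon genes, 0.11.

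Genes of collagen and matrix were higher on both arrays for 10 of 16 and lower on both for 0, with a median of 0.10, where 16.8% of all named genes were higher on both. Col3a1 (type III collagen of the reticular meshwork) gave 0.23 and 0.21, and Dcn (decorin) gave 0.08 and 0.40. Of 7 megakaryocyte and platelet genes, 4 were higher on both, with a median of 0.09. Nfe2, a factor that erythroid cells also use, gave 0.32 and 0.19. Acute phase and complement genes had 11 of 22 higher on both and a median of 0.10, and 6 of the 22 genes, Fgb, Fgg, Hp and Hpx among them, also stand in other lists. Genes of the antioxidant response (median 0.01 over 28 genes), the unfolded protein response (0.01 over 19) and cholesterol and fatty acid synthesis (-0.00187 over 18) showed no shared direction. Asns, the asparagine synthetase, was the one gene of the unfolded protein response list at least 1.2-fold higher on both arrays, with 0.27 and 0.42.

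**Figure D5:**
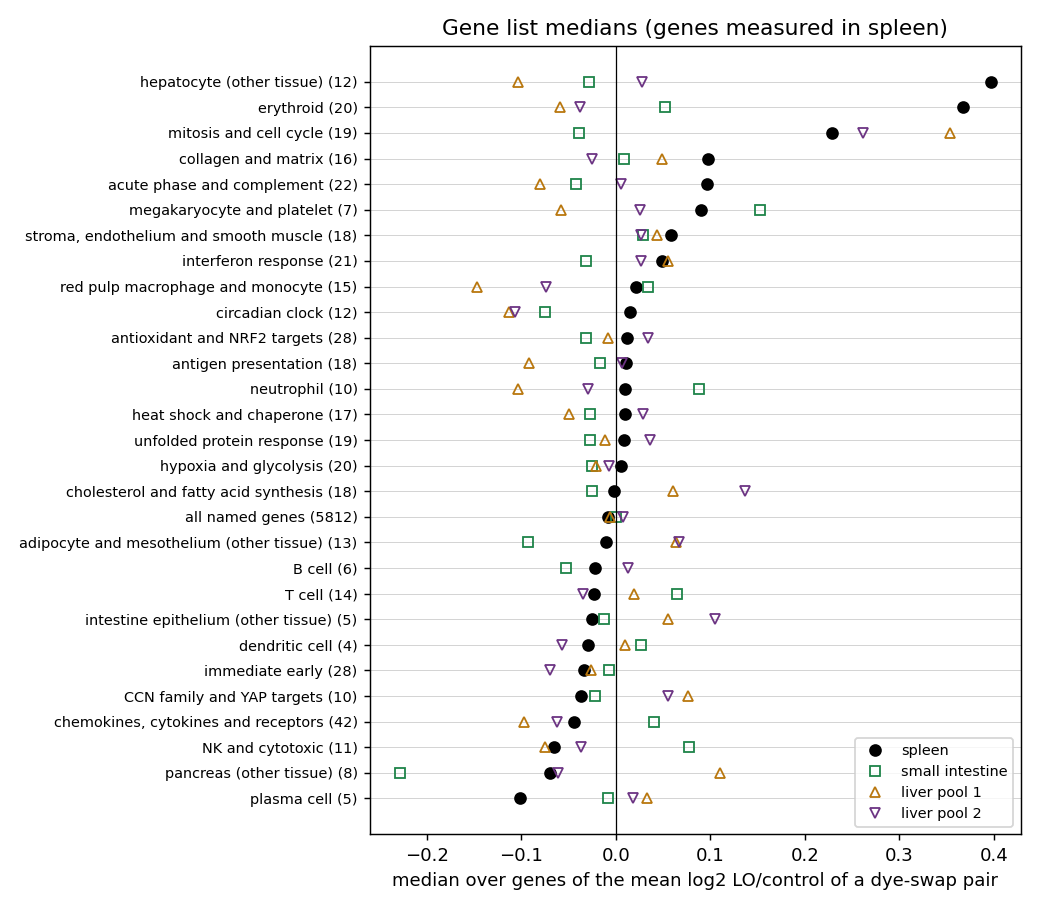
Each row is a gene list with the number of genes measured in spleen, and the x axis gives the median over its genes of the mean log2 LO/control of a dye-swap pair, filled circles being spleen and open symbols the small intestine and both liver pools. The hepatocyte, erythroid and mitosis lists lie at 0.40, 0.37 and 0.23 in spleen and all others between -0.10 and 0.10, and the mitosis list lies to the right in both liver pools too.

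Apart from Ccn1 and Fos, the genes lower with LO on both arrays had small or uneven differences. Of the 15 named genes with the lowest smaller ratio, 11 had signals below 200 in every channel. Ffar2, a receptor for short-chain fatty acids on leukocytes, gave 78.9 with control and 66.5 with LO on array 1 but 57.7 and 32.5 on array 2. Hspa1a, the inducible heat shock protein, likewise gave -0.22 on array 1 and -0.84 on array 2. Tnni1, the slow skeletal troponin I, gave -0.30 and -0.56. The pancreatic trypsin genes Prss2 (-0.24 and -0.43) and Try10 (-0.34 and -0.30) were lower together, but their probes read closely related transcripts. Of 8 measured pancreas genes, 3 were lower on both arrays, where 19.1% of all named genes were, and 0 were higher. Their median was -0.07.

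Control genes set the scale of these values. The repeated Gapdh probe, mean of 10 copies, gave 0.16 on array 1 and -0.01 on array 2, and that of Actb gave 0.35 and -0.17. Of 20 genes that the study names for the spleen, 4 were read by a bright probe. Ccn1 (Cyr61 there, down-regulated) and Alb (up-regulated) had the study's direction, which its RT-PCR also gave. The others are Dclk1, a doublecortin-like kinase, and Scd2, a fatty acid desaturase, both listed there as down-regulated. The bright probe of Dclk1 gave 0.14 and 0.03. The 3 bright probes of Scd2 averaged between -0.02 and 0.10, and the highest of them gave 0.52 on array 1 and -0.33 on array 2. Whether these are the probes behind the study's listing was not tested.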

How the data were processed

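Total RNA of spleen, small intestine and liver was labelled with Cy3 and Cy5 and hybridized to 4x44K rat arrays. The authors extracted the images with Agilent Feature Extraction (version 11.0.1.1 in the file headers), and deposited, for each feature, a log10 ratio of Cy5 over Cy3 after background subtraction and LOWESS normalization. The p-value deposited by the authors with each ratio comes from the software's error model for a single array. The deposited signal intensity values are dye-normalized and on a linear scale. Flags for brightness, saturation and non-uniformity were deposited with them. The series table the authors deposited holds the same log10 ratios for bright features.

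Ratios were turned to log2 LO/control. Features well above background in both dyes on both spleen arrays, not flagged and not controls were kept, and copies of a probe averaged. Symbols came from RefSeq transcript accessions. limma (version 3.58.1, R 4.3.3) was fitted to the mean of each dye-swap pair (spleen, small intestine and 2 liver pools) with 1 coefficient per tissue, which leaves the liver pools to give the spread. The other tissues' values were treated as missing where dim. Prior df was 5.14. Benjamini-Hochberg adjustment ran over the 22828 probes. Python 3.11.15, numpy 2.4.6, pandas 2.3.3 and matplotlib 3.10.9 made tables and figures. The calls and the fit were tested on simulated data for probes bright in all tissues. The planted changes were larger than any mean reported here, and the P threshold was not exercised. How the calls and the fit perform at the sizes reported was not tested.

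The number of arrays limits the precision, and the 2 spleen arrays hold 1 pair of pools, so the condition itself has no replicate. Named genes were every probe past the cut-offs, the 15 genes in each direction with the largest smaller ratio, for each list the first 2 measured and the 3 largest by size, Gapdh, Actb, and genes the study names for spleen. Others were added with their values seen, and the erythroid, mitosis and hepatocyte lists are given more fully. The values of 2 erythroid genes are not reported here singly, though they count in the list totals. The members, the 28 gene lists and the rules were chosen with earlier results of these data known.

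Dye deviations correlated between pairs (0.51 to 0.82 across probes), as the replicate number marks the dye orientation, which the labels give. Alternatives were other cut-offs, brightness filters, normexp correction (offset 50) with loess, the series table, centring, flagged features kept, a dye effect taken from the other tissues, each array left out, and limma over all 8 arrays with and without the replicate block.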

Additional observations from a re-analysis of the deposited data

Results flagged for a closer look

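The Ig gamma-1 constant region probe (listed as RGD1359539) was higher with LO on both spleen arrays and lower on both small intestine arrays. The difference, spleen minus small intestine, was 1.36 on the log2 scale (limma adjusted p = 0.641), which did not pass the test. Outside the bright transcripts, 69 features were well above background with LO on both spleen arrays and with control on neither, and 0 were so the other way round. The same count was 16 against 12 in the small intestine, 20 against 9 in liver pool 1 and 14 against 46 in liver pool 2. Named ones are Oxt (at least 1.41-fold higher with LO, against the lowest signal well above background), Wt1 (at least 1.38-fold) and Reg3a (at least 1.37-fold). Another copy of the Oxt probe gave 1.13-fold. These signals were dim, as for Wt1 with 37.1 with LO and 31.1 with control on array 1. The selection itself favours a higher LO signal. On array 1 alone 2333 features were bright with LO and not with control and 605 the reverse, against 900 and 1007 on array 2.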

How the results depend on the processing

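The counts by the cut-offs moved with the settings. With 3 higher and 3 lower as reported, the higher count was 11 without the P threshold, 0 at P below 0.001, 178 at 1.2-fold on both arrays without P, 14 for a mean of at least 1.5-fold without P, 5 with normexp and loess without P, 11 with the series table without P and 9 with a dye effect taken from the other tissues subtracted. The lower count was 1 at P below 0.001, 32 at 1.2-fold and 5 for the mean, and 2 to 4 under the other alternatives that used both arrays. A single array gave 46 to 96 higher and 22 to 48 lower. In limma, 10 higher and 6 lower passed when a bright signal in 1 channel sufficed, and 208 and 21 with normexp and loess, under which the SD of the probe means was 0.07 in place of 0.10. With the replicate block, 1 probe (Ccn1) was lower and 0 were higher, and without the block over 8 arrays 0 passed either way, as when either array of every pair was left out. The block changed no other call. Both fits over 8 arrays counted the arrays of a dye swap as separate observations, though they hold the same pools. The correlation between the arrays was -0.5526 when 1 bright channel sufficed and between -0.47 and -0.40 otherwise. The erythroid median was 0.2732 to 0.3503 on a single array, the mitosis median 0.1652 to 0.2386 and the hepatocyte median 0.1557 to 0.4081, with 0.1902 under normexp. Of 28 list medians, 20 to 23 kept their direction on a single array and 27 or 28 under every other setting. All 36 probes past the cut-offs or among the highest and lowest named kept theirs. They were picked for the same direction on both arrays, so leaving out an array could not change it. Under normexp 17 of the 36 were over 1.5 times smaller, and 7 of the 14 past the cut-offs without P no longer passed. Normexp was run with an offset of 50 added to both signals, which by itself draws the ratios of dim probes towards equality. Serpina3c went from 0.68 to 0.32 and Fos from -0.74 to -0.34, whereas the bright HBB probe stayed at 0.58. The bright probe for the erythroid associated factor kept its mean of 0.54 but no longer passed. Normexp is thus not an independent check of dim probes. What else made results differ between settings was not tested. Signals near background, as for hepatocyte genes, limit the ratios.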
